A study of Frankliniella occidentalis and Frankliniella intonsa with 9 samples.

Results

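The genes described here encode the enzymes with which a cell disposes of superoxide and peroxides and keeps its protein thiols reduced: superoxide dismutases, catalases, peroxiredoxins, glutathione peroxidases, thioredoxins, thioredoxin reductases and glutaredoxins. They were found in a table of 48889 assembled genes by their Pfam domain (Sod_Cu, Sod_Fe, Catalase, AhpC-TSA, Redoxin, GSHPx, Glutaredoxin or Thioredoxin) or by the words thioredoxin reductase in their annotation. Rows annotated as glutathione S-transferases or protein disulfide-isomerases, 15 in number, were left out. This gave 135 genes, of which 120 carry a domain name exactly as listed and 15 a longer form of one, such as Thioredoxin_6. By the organism of the Swiss-Prot match, 85 were animal-like, 34 matched a plant, alga or microbe, and 16 had no Swiss-Prot match. The 34 fell into 14 plant, 11 bacterial, 6 fungal, 2 microsporidian and 1 algal match. A match names the nearest database protein and does not prove where a transcript came from.

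Superoxide dismutases turn superoxide into hydrogen peroxide, the copper-zinc forms mainly in the cytosol or outside the cell and the manganese form in mitochondria. Catalase then removes hydrogen peroxide, and peroxiredoxins and glutathione peroxidases remove hydrogen and lipid peroxides. Thioredoxin and glutaredoxin pass electrons to peroxiredoxins, to some glutathione peroxidases and to oxidised proteins. Thioredoxin reductase recharges thioredoxin with NADPH. In Drosophila melanogaster, which has no glutathione reductase, the thioredoxin system also keeps glutathione reduced.

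The study sequenced RNA from antennae of adult thrips that were 1 day old. It had 3 libraries of male Frankliniella occidentalis (western flower thrips), 3 of female Frankliniella intonsa, and 3 of female F. occidentalis. The labels name no treatment or genetic change, and do not say whether a library came from 1 insect or a pool or whether replicates were separate collections, so p-values measure only the spread between these libraries, which may be technical. Values are TPM (each transcript's share of its library, scaled for length), from 1 assembly shared by both species, and gene identifiers are the assembly's own (TRINITY_ followed by the name given here).

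Library totals ran from 935518 to 987791 TPM, and because TPM keeps no read numbers, depth is unknown. In the F. intonsa libraries rows without annotation held 84.9%, 44.3% and 92.2% of TPM in libraries 1, 2 and 3, against 23.2% to 29.1% in the 6 F. occidentalis libraries. Those 3 libraries had 16360, 28515 and 10556 rows above 0, against 22666 to 24204 in F. occidentalis. The odorant receptor coreceptor, which marks olfactory neurons, summed to 9.72, 23.3 and 16.0 TPM in males, 0.08, 18.4 and 0 TPM in F. intonsa females and 9.16, 16.6 and 16.1 TPM in F. occidentalis females. Sensory neuron membrane proteins summed to 89.9, 173 and 188 TPM in males, 3.49, 70.5 and 0 TPM in F. intonsa females and 50.2, 43.6 and 79.4 TPM in F. occidentalis females. F. intonsa library 3 listed both at 0, and library 1 had little of either. Odorant-binding proteins, which carry odorants in antennal fluid, summed to 1729, 4341 and 2862 TPM in males, 887, 2873 and 57.9 TPM in F. intonsa females and 1767, 2349.8 and 2416 TPM in F. occidentalis females, and chemosensory proteins, another family of small secreted carriers, to 8025, 6674 and 6286 TPM in males, 528, 7089 and 134 TPM in F. intonsa females and 6159.8, 5451 and 7152 TPM in F. occidentalis females. These 2 lists were above 0 in every F. intonsa library, with library 3 the lowest in both. Vitellogenin, a fat body product, summed to 73.6, 121 and 73.3 TPM in males and 10446, 12448 and 6644 TPM in F. occidentalis females. Of its 40 rows tested, 35 were lower in males at an adjusted p under 0.05 (limma), against 0.918% of all rows. Opsins, which mark the eye, summed to 1513, 581 and 1142 TPM in males and 1441, 2035 and 1522 TPM in F. occidentalis females. In F. intonsa females vitellogenin summed to 43.6, 1905 and 1.09 TPM, the opsins to 46.4, 1566 and 61.9 TPM and muscle genes to 573, 13773 and 358 TPM. Muscle genes summed to 11986, 7927 and 7832 TPM in males and 12405, 12384 and 16671 TPM in F. occidentalis females, so that every male library was below every female one. Of the 37 muscle rows tested, 4 were lower and 2 higher in every male library than in every female one. Over all rows of the sex comparison described below, those shares were 6.83% and 13.3%. At an adjusted p under 0.05 (limma), 0 of the 37 were higher and 0 lower in males.

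The 135 genes comprised 41 thioredoxin-domain rows, 29 peroxiredoxins, 18 glutaredoxins, 16 with the copper-zinc dismutase domain (3 of them copper chaperones), 9 glutathione peroxidases, 8 iron-manganese dismutases, 7 catalases and 7 thioredoxin reductases. Their listed lengths ran from 201 to 3088 bases, with a median of 771. By species, 41 were above 0 in F. occidentalis alone, 53 in F. intonsa alone and 41 in both. Their TPM summed to 7483, 6373 and 6928 in male libraries, 1809, 4897 and 383 in F. intonsa female libraries and 7119, 7918 and 7848 in F. occidentalis female libraries. The male and female F. occidentalis sums overlapped, while the F. intonsa sums were lower in every library and far apart from each other. In such bulk samples, fewer cells of a type and less RNA per cell cannot be told apart.

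In F. occidentalis antennae the redox genes were dominated by a few abundant, mostly animal-like enzymes. Of all 135 genes, 15 averaged at least 100 TPM over the 6 libraries, and they held 84.7% to 90.3% of the redox TPM of a library. Copper-zinc dismutase rows made up 30.9% ± 0.271 of redox TPM in males and 30.3% ± 2.31 in females (SD, n = 3 each). Peroxiredoxins made up 27.6% ± 0.946 in males and 29.5% ± 1.49 in females. Glutathione peroxidases followed with 17.1% ± 0.476 in males and 17.9% ± 0.363 in females, and thioredoxins with 12.4% ± 1.78 in males and 11.2% ± 0.445 in females. Glutaredoxins, iron-manganese dismutases, catalases and thioredoxin reductases each held under 7% on average in either sex, at 6.09%, 2.31%, 2.17% and 1.49% in males and 5.25%, 2.57%, 2.02% and 1.26% in females. The order of the families by mean share was the same in both sexes, although copper-zinc dismutases and peroxiredoxins overlapped between libraries of females, and iron-manganese dismutases and catalases between libraries of males.

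The sex comparison asked which rows differed between male and female F. occidentalis antennae. It was fitted with limma on log2(TPM + 1) over all 22015 rows that reached 1 TPM in at least 3 of the 6 libraries, where a fold change understates the change of low genes. Of the redox genes 65 were tested; of the 70 others, 53 were at 0 in all 6 libraries and 17 were low. At a Benjamini-Hochberg adjusted p under 0.05 (limma), 7 of the 65 (10.8%) differed, against 1.89% of all rows tested. All 7 were higher in males, against 0.968% of all rows, and 0 were lower in males, against 0.918%; at an unadjusted p under 0.05, 12 of the 65 stood out in either direction, and 3415 of the 22015 rows. None of the 47 animal-like genes tested was among the 7 (0 by limma, 2 at an unadjusted p under 0.05, 0 in each of 13 alternative fits), a share near the 1.89% of all rows, while 4 of the 8 plant-, alga- or microbe-matched genes and 3 of the 10 genes without a Swiss-Prot match were. The median log2 fold change, male minus female, was -0.19 over the animal-like genes, 1.87 over the plant-, alga- or microbe-matched ones and 0.33 over those without a match, beside 0.19 over all rows.

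**Figure D1:**
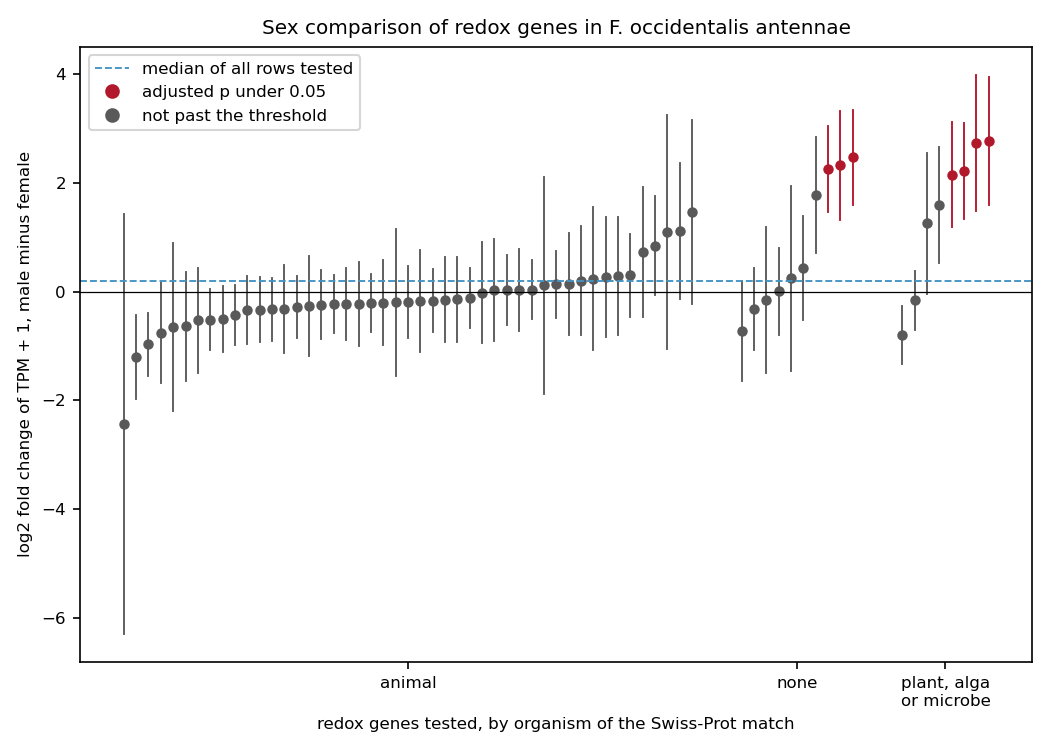
Log2 fold change of TPM + 1 (male minus female, y axis) with its 95% interval for the 65 redox genes tested in F. occidentalis antennae, grouped by the organism of the Swiss-Prot match and ordered by size within a group; the dashed line is the median of all rows tested. The 7 genes past the threshold (red) lie between 2.15 and 2.77, and all of them are outside the 47 animal-like genes.

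Among the copper-zinc dismutases, the most abundant redox family, 9 rows were tested between the sexes. The number past the threshold was 0 (limma; 0 at an unadjusted p under 0.05), which for so few rows is near the 1.89% of all rows and no result about the family. The highest, DN45547_c2_g5 (nearest named protein in the termite Zootermopsis nevadensis), had 889, 517 and 709 TPM in males and 644, 871 and 861 TPM in females. The groups overlapped, and limma put the log2 fold change at -0.19 ± 0.29 (SE; adjusted p = 0.823). DN44978_c0_g3, annotated from the ant Camponotus floridanus, had 613, 586 and 565 TPM in males and 644, 722 and 679.9 TPM in females. Every male library was below every female one, but the difference was small (-0.21 ± 0.23 (SE), adjusted p = 0.733, limma). Its neighbour in the assembly, DN44978_c0_g2, is a piece of 253 bases with 456, 538 and 485 TPM in males and 339.9, 555 and 481 TPM in females. It showed no such order, and the 2 rows summed to 1069, 1124 and 1051 TPM in males and 984, 1276 and 1161 TPM in females, which overlap. Of the 9 rows, 2 were lower and 0 higher in every male library, against 6.83% and 13.3% of all rows. The other such row, DN39371_c0_g3, noted after its values were seen, had 220, 243 and 245 TPM in males and 257, 306 and 268 TPM in females (-0.23 ± 0.23 (SE), adjusted p = 0.711, limma). The copper chaperone for superoxide dismutase, which loads copper into the enzyme, was low: its component summed to 15.9, 11.0 and 13.0 TPM in males and 12.2, 16.0 and 12.5 TPM in females.

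Of the 15 abundant rows, the mitochondrial manganese dismutase had the most negative log2 fold change after the peroxiredoxin row DN40332_c0_g3. DN38265_c0_g4 had 118, 80.5 and 87.5 TPM in males and 204, 168 and 184 TPM in females, averaging 95.2 ± 19.7 TPM in males and 186 ± 17.9 TPM in females (SD, n = 3 each). The groups did not overlap, yet the log2 fold change of -0.97 ± 0.26 (SE) did not pass the threshold (adjusted p = 0.102, limma). Among the 47 animal-like genes tested, 10 had every male library below every female one and 1 the reverse (DN43186_c1_g10, a peroxiredoxin 6 row noted after its values were seen, with 5.25, 7.90 and 6.07 TPM in males and 3.03, 4.98 and 1.83 TPM in females). Over all rows tested those shares were 6.83% and 13.3%, and 20.1% in either direction. The sum of the muscle genes was likewise lower in every male library, and its part in these differences was not tested. Catalase, which splits hydrogen peroxide in peroxisomes, had 165, 122 and 138 TPM in males and 148, 155 and 156 TPM in females in DN38145_c2_g11. Its groups overlapped, with a log2 fold change of -0.12 ± 0.24 (SE).

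Peroxiredoxins reduce peroxides through a reactive cysteine and are recharged mostly by thioredoxin. The most abundant redox row was peroxiredoxin 1 (DN40332_c0_g6, matching the Drosophila melanogaster protein), with 830.4, 829.9 and 994 TPM in males and 1000.5, 821 and 1178 TPM in females. Peroxiredoxin 5, a mitochondrial form in mammals, had 471, 366 and 418 TPM in males and 518, 610.2 and 559 TPM in females in DN44502_c0_g6. Peroxiredoxin 6 had 425, 347 and 334 TPM in males and 352, 357 and 361 TPM in females in DN46741_c0_g4. Peroxiredoxin 5 alone of these was lower in every male library than in every female one, at -0.43 ± 0.24 (SE, adjusted p = 0.456, limma), while the log2 fold changes of peroxiredoxins 1 and 6 were -0.17 ± 0.26 and 0.04 ± 0.24 (SE). Of the 11 animal-like peroxiredoxins tested, 0 passed the threshold (limma), near the share of all rows, and 1 had an unadjusted p under 0.05. That 1 was the peroxiredoxin 4 row DN40332_c0_g4, noted after its values were seen, with 6.61, 5.15 and 5.42 TPM in males and 18.7, 16.4 and 9.83 TPM in females (-1.21 ± 0.34 (SE), adjusted p = 0.12, limma).

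Glutathione peroxidases reduce peroxides, lipid peroxides among them, with glutathione or thioredoxin. DN42547_c1_g1, which matched an epididymal secretory glutathione peroxidase of the rat, had 897, 644 and 720.0 TPM in males and 847, 943 and 937 TPM in females. DN44254_c0_g1 had 413, 377 and 418 TPM in males and 399, 476 and 482 TPM in females. Its Swiss-Prot match is a tomato enzyme, but its annotation is the mitochondrial phospholipid hydroperoxide form of the termite Zootermopsis nevadensis. Both overlapped between the sexes, with log2 fold changes of -0.28 ± 0.25 and -0.16 ± 0.24 (SE). A second row of the same component, DN44254_c0_g3, had 0.03, 63.0 and 0.14 TPM in males and 0.03, 0.29 and 0.16 TPM in females, so that 1 male library stood apart from the other 5.

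Thioredoxin reductase 1 (DN40205_c0_g3, matching the Drosophila melanogaster enzyme) had 51.3, 56.3 and 52.4 TPM in males and 38.5, 55.5 and 66.2 TPM in females, a log2 fold change of 0.03 ± 0.28 (SE). A second row of its component, DN40205_c0_g6, varied more, with 71.17, 30.58 and 7.02 TPM in males and 28.11, 54.55 and 42.45 TPM in females (-0.65 ± 0.69 (SE)). The component summed to 122, 86.9 and 59.4 TPM in males and 66.6, 110 and 109 TPM in females, which overlap. The mitochondrial thioredoxin DN43669_c0_g6 had 75.8, 69.5 and 53.6 TPM in males and 76.9, 84.8 and 86.2 TPM in females. Every male library was below every female one, at -0.33 ± 0.26 (SE, adjusted p = 0.609, limma). Among glutaredoxins, the small thiol enzymes that use glutathione, DN43070_c0_g2 had the highest mean in either sex of F. occidentalis. It had 189.9, 176 and 150.04 TPM in males and 313, 304 and 278 TPM in females, and its groups did not overlap. It matched Arabidopsis glutaredoxin-C4 in Swiss-Prot but a bed bug (Cimex lectularius) protein in its annotation, and its log2 fold change of -0.80 ± 0.24 (SE) did not pass the threshold (adjusted p = 0.141, limma). Glutaredoxin-related protein 5, which serves iron-sulfur cluster assembly in mitochondria, had 26.1, 22.1 and 19.1 TPM in males and 23.6, 24.5 and 31.9 TPM in females in DN45573_c0_g2, which overlap.

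Taking the 15 rows of at least 100 TPM as a whole, 14 had a log2 fold change within 1 of 0, and for 10 the whole 95% interval lay within 1 of 0. By value 3 were higher and 12 lower in males, and 13 of the 15 were animal-like. For these 10 rows a difference of 2-fold or more on this scale lay outside the interval, while for the other 5 it did not.

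**Figure D2:**
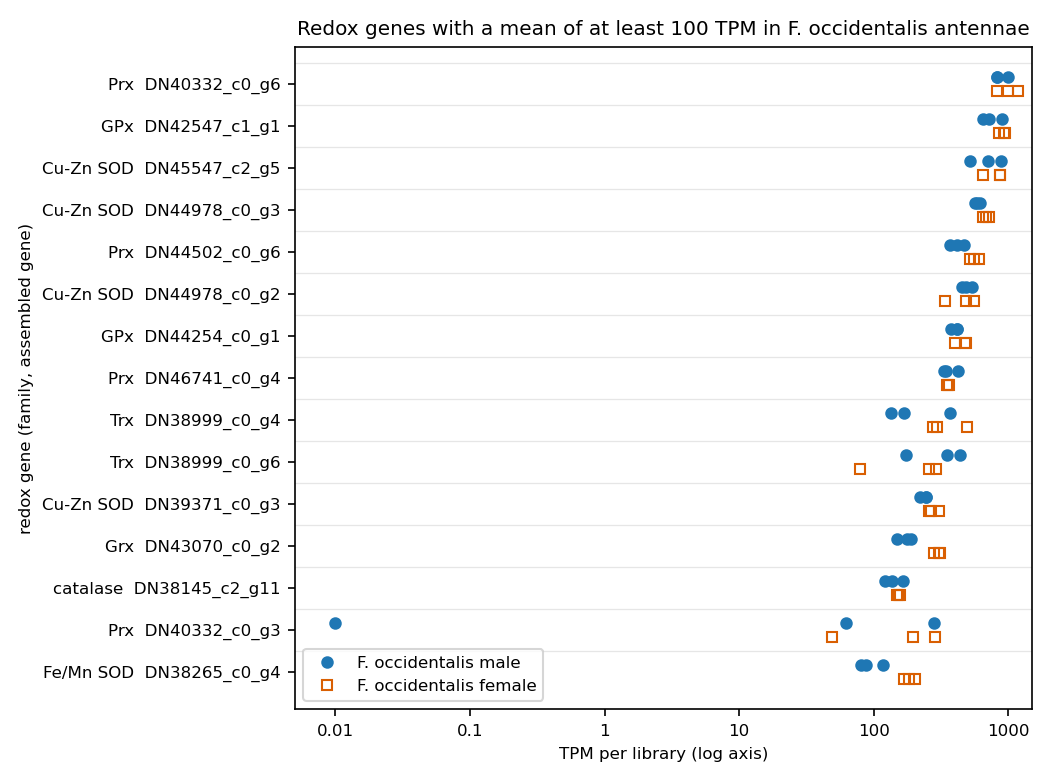
TPM per library (log axis) of the 15 redox genes that averaged at least 100 TPM over the F. occidentalis libraries, males as filled circles above females as open squares. In 14 of the 15 the sexes lie within a log2 fold change of 1; the exception is DN40332_c0_g3, with 0.01 TPM in male library 3 and 280.2 TPM in male library 1.

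In 2 assembly components of abundant enzymes the rows varied more between libraries than their sum. Thioredoxin-2, the cytosolic thioredoxin of Drosophila, was split into DN38999_c0_g4, with 134, 371 and 168 TPM in males and 295, 494 and 277 TPM in females, and DN38999_c0_g6, with 353, 174 and 438 TPM in males and 259, 78.8 and 290.1 TPM in females. In both sexes library 2 was the highest for the first row and the lowest for the second. Summed with 1 more row, the component had 487, 545 and 606 TPM in males and 555, 573 and 567 TPM in females, which overlap. The rows' own log2 fold changes were -0.76 ± 0.41 and 0.72 ± 0.53 (SE), against -0.05 for the sum. DN40332_c0_g3, a second peroxiredoxin 1 row chosen after its values were seen, had 280.2, 62.3 and 0.01 TPM in males and 197, 288 and 48.9 TPM in females. Its log2 fold change of -2.44 ± 1.71 (SE, adjusted p = 0.559, limma) was -0.09 without male library 3. The sum of its component, 1117, 897 and 999.8 TPM in males and 1216, 1125 and 1237 TPM in females, had a log2 fold change of -0.25 (adjusted p = 0.69, limma), and all 3 male sums were below the 3 female ones.

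**Figure D3:**
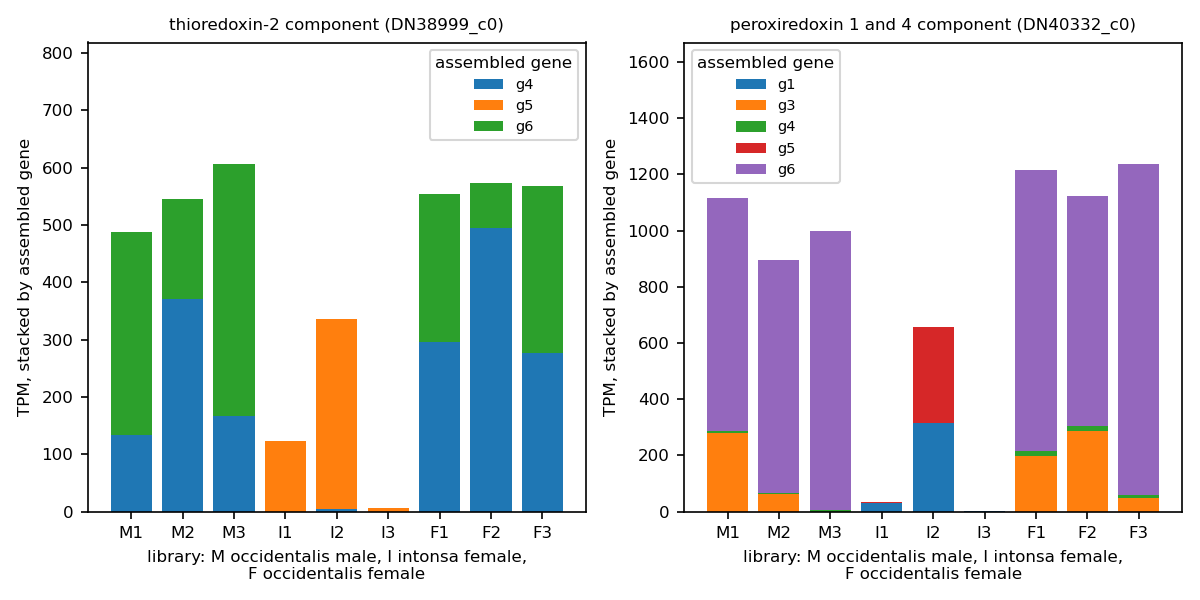
TPM per library of the rows of 2 assembly components, stacked: thioredoxin-2 (left panel) and peroxiredoxins 1 and 4 (right panel), for male F. occidentalis (M), female F. intonsa (I) and female F. occidentalis (F). The 6 F. occidentalis thioredoxin-2 bars reach 487 to 606 TPM although their 2 main rows change places, and other rows fill the F. intonsa bars.

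The 7 genes that were higher in males had no animal Swiss-Prot match, and 6 of them averaged under 100 TPM in males. They were 2 glutaredoxins, 3 iron-manganese dismutases, 1 peroxiredoxin and 1 thioredoxin reductase, of 247 to 949 bases. The male mean was 5.21 to 10.15 times the female mean. The glutaredoxin DN50812_c0_g1 (261 bases, no match) had 115, 76.5 and 206 TPM in males and 28.1, 18.4 and 18.5 TPM in females. The lowest male library was above the highest female one, at 2.47 ± 0.39 on the log2 scale (SE, adjusted p = 0.0206, limma). The glutaredoxin DN40213_c0_g1 had 78.8, 37.8 and 62.2 TPM in males and 11.2, 8.74 and 14.4 TPM in females. It too was apart in every library (2.25 ± 0.35 (SE), adjusted p = 0.0204, limma), and its annotation is an unnamed hookworm (Ancylostoma ceylanicum) protein.

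Of the 3 iron-manganese dismutases, 2 lie in 1 assembly component and carry different ends of the enzyme's domain. DN8752_c0_g1 (the N-terminal domain, no match) had 21.8, 26.8 and 53.0 TPM in males and 3.53, 4.70 and 9.63 TPM in females. DN8752_c0_g2 (the C-terminal domain, matching the alga Chlamydomonas reinhardtii) had 11.3, 10.6 and 21.5 TPM in males and 1.89, 0.04 and 2.34 TPM in females. Both were higher in males, at 2.32 ± 0.44 (SE, adjusted p = 0.0395) and 2.77 ± 0.52 (SE, adjusted p = 0.0373) by limma, and rows of 1 component are not independent. DN47459_c0_g1, which matched a Staphylococcus carnosus dismutase, had 15.2, 7.65 and 16.5 TPM in males and 1.96, 2.35 and 1.46 TPM in females. Its groups were apart as well (2.22 ± 0.39 (SE), adjusted p = 0.0311, limma). In these rows the direction was the opposite, by value, of the manganese dismutase with an animal match.

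The peroxiredoxin DN32807_c0_g1 matched a thioredoxin peroxidase of the microsporidian Encephalitozoon cuniculi, an intracellular parasite related to fungi. It had 9.03, 4.90 and 10.3 TPM in males and 1.28, 0.68 and 1.0 TPM in females (2.15 ± 0.43 (SE), adjusted p = 0.0442, limma). A second row with that match, DN49102_c0_g1, had 6.28, 4.44 and 14.1 TPM in males and 2.14, 1.11 and 2.36 TPM in females. Its groups did not overlap either, but it did not pass the threshold (1.58 ± 0.47 (SE), adjusted p = 0.141, limma). The thioredoxin reductase DN45209_c0_g2, matching the chloroplast enzyme NTRC of rice, had 13.1, 8.21 and 21.7 TPM in males and 0, 1.99 and 2.37 TPM in females (2.73 ± 0.55 (SE), adjusted p = 0.0465, limma). Across the 7 genes male library 2 was the lowest male library in 6 and male library 3 the highest in 6. In F. intonsa all 7 were above 0 in library 2, 2 in library 1 and 1 in library 3, at no more than 9.39 TPM.

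**Figure D4:**
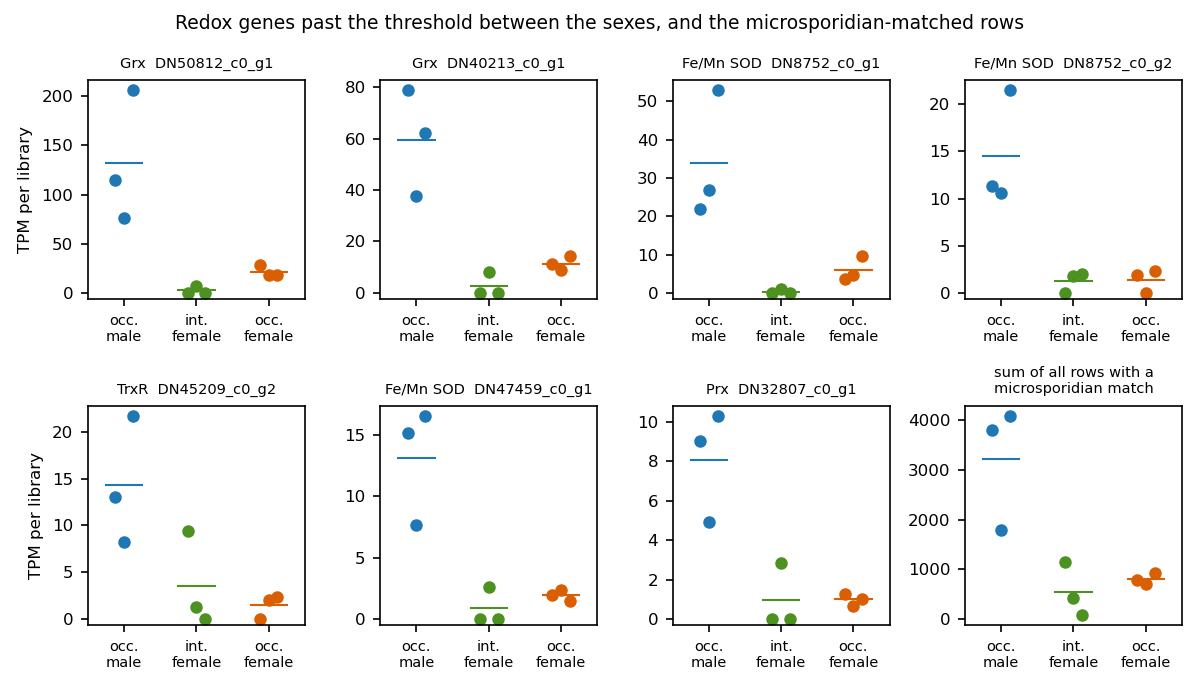
TPM per library of the 7 redox genes higher in males, and in the last panel the sum over all rows with a microsporidian Swiss-Prot match; points are libraries, horizontal lines group means, with male F. occidentalis, female F. intonsa and female F. occidentalis from left to right. In every panel the 3 male libraries lie above the 3 F. occidentalis female libraries.

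Rows that share the matches or annotations of some of these genes were also higher in males. The 159 rows of the table with a microsporidian match summed to 3795, 1787 and 4087 TPM in males and 784, 707 and 933 TPM in F. occidentalis females, with male library 2 again the lowest male one; the F. intonsa libraries had 1145, 425 and 79.3 TPM. Of the 146 tested, 26 (17.8%) were higher in males and 0 lower (limma), against 0.968% and 0.918% of all rows. In 133 every male library was above every female one and in 0 the reverse, against 13.3% and 6.83% of all rows. The median log2 fold change of the microsporidian-matched rows was 1.65. Of the 159, 6 were at 0 in all male libraries and 5 in all F. occidentalis female libraries. Of the 7 redox genes, 3 carry an annotation from the swallowtail Papilio xuthus, and 4 are in the microsporidian or the Papilio xuthus list. The 305 rows annotated from that butterfly, a list made after values were seen, summed to 5315, 3694 and 5298 TPM in males and 1849.9, 1464 and 1935 TPM in F. occidentalis females. Of 260 tested, 41 (15.8%) were higher in males and 0 lower (limma). In 212 of them every male library was above every female one, and in 3 the reverse. In F. intonsa that list summed to 3259, 3944 and 1304 TPM, above every F. occidentalis female library in libraries 1 and 2. Some of the 7 redox genes were above every F. occidentalis female library there too. These were DN45209_c0_g2 with 9.39 TPM in library 1, and DN47459_c0_g1 and DN32807_c0_g1 with 2.60 and 2.82 TPM in library 2. The others of the 7 were not. The origin of these rows and their part in the 7 differences were not tested.

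The 7 calls depended on single libraries and on the settings of the fit. Without any 1 of F. occidentalis female libraries 1, 2 or 3, or without male library 1, 0 redox genes passed the threshold. Without male library 2 it was 4, and without male library 3 it was 1. The calls over all rows fell too, from 415 to 18, 23 and 36 without female library 1, 2 or 3. Without male library 1, 2 or 3 they were 153, 285 and 183. With no filter on low values or with limma without its trend the number of redox genes was 0. It was 3 with a pseudocount of 0.1, and 2 with quantile normalization or all 9 libraries in the fit. In the same order, all rows gave 116, 198, 271, 207 and 502 calls. In each of those fits the log2 fold changes of the 7 genes stayed positive, between 1.88 and 4.06.

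Genes that supply or surround these enzymes were compared between the sexes in the same fit. Outside the 135 genes, 6 lists held 162 rows for NADPH supply, glutathione synthesis and turnover, repair and metal handling, oxidant sources, regulators and heme peroxidases. Of the 85 tested, 0 were higher and 0 lower in males (limma; 7 at an unadjusted p under 0.05), near the 0.968% and 0.918% of all rows, with a median log2 fold change of 0.01 beside 0.19 over all rows. Keap1, which in mammals holds back the transcription factor Nrf2 until oxidants arrive, had 256, 319 and 356 TPM in males and 833, 729 and 475 TPM in F. occidentalis females (DN45531_c0_g1). Its groups did not overlap, but the log2 fold change of -1.10 ± 0.29 (SE) did not pass the threshold (adjusted p = 0.103, limma). NADP-dependent isocitrate dehydrogenase, a source of NADPH, had 160.0, 149.6 and 141 TPM in males and 155, 176 and 163 TPM in females (DN46743_c2_g13). The iron store ferritin had 506, 291 and 293 TPM in males and 406, 485 and 383 TPM in females (DN38883_c0_g10), and xanthine dehydrogenase, which can release superoxide, had 19.4, 16.0 and 24.7 TPM in males and 13.5, 20.8 and 20.3 TPM in females (DN41307_c0_g8). All 3 overlapped between the sexes, as did the highest rows of the other lists: a glyoxalase-domain row (DN40042_c0_g2, 81.2 ± 3.46 TPM in males and 70.6 ± 8.68 TPM in females) and a chorion peroxidase (DN44615_c0_g3, 15.1 ± 5.26 TPM in males and 9.23 ± 3.86 TPM in females; SD, n = 3 each).

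The species comparison set F. intonsa females against F. occidentalis females, and shares the F. occidentalis female libraries with the sex comparison. Of the 83 redox genes tested, 67 passed the threshold (limma), 20 higher and 47 lower in F. intonsa, which is 80.7% against 85.4% of all 21231 rows tested (17.1% higher, 68.3% lower). With quantile normalization 22 of the 83 were higher and 33 lower, while 11047 of the 21231 rows passed, against 18127 in the main fit. Most of the rows were listed at 0 on one side: 100 of the 135 genes were at 0 in all libraries of at least 1 group. Of the 41 at 0 in all F. intonsa libraries 34 reached the filter on low values, and of the 63 at 0 in all F. occidentalis females 19 did. These 53 rows could reach it only through the group in which they were above 0, so their direction was fixed before the fit. They made up 52 of the 67 calls, and those 52 describe where rows were listed at 0 and are no result about the enzymes. Of the 35 genes above 0 in both groups 30 were tested, and 15 of the 30 passed (2 higher, 13 lower), against 52.1% of all such rows (7.27% higher, 44.8% lower). The 2 higher ones were a Bordetella-matched dismutase (DN32392_c0_g1) and a thioredoxin annotated from the pig (DN20180_c0_g1, with 5.73, 4.85 and 6.17 TPM in F. intonsa and 0, 0.67 and 0 TPM in F. occidentalis females). Both stayed under 1 TPM in every F. occidentalis female library and reached the filter only through F. intonsa. Their direction was thus also fixed before the fit, and they are no result about the enzymes. The same held in reverse for the lower row DN8752_c0_g1, with 0, 0.93 and 0 TPM in F. intonsa. The count without F. intonsa library 1, 2 or 3 was 45 of 61, 50 of 58 and 48 of 61 genes tested. Of all rows, 14252 of 17440, 16126 of 17316 and 14619 of 17559 passed. A row at 0 in F. occidentalis females then could not reach 1 TPM in 3 libraries, and 0, 0 and 2 redox genes were higher. Without F. occidentalis female library 1, 2 or 3 the count was 25 of 45, 22 of 46 and 22 of 44. Of all rows, 3612 of 7825, 3472 of 7802 and 3346 of 7823 passed. In those fits a row at 0 in F. intonsa could not reach 1 TPM in 3 libraries.

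The 4 redox genes above 0 in all 6 female libraries show how uneven the F. intonsa libraries were. Glutaredoxin-related protein 5 (DN45573_c0_g2) had 53.6, 69.4 and 0.23 TPM in F. intonsa and 23.6, 24.5 and 31.9 TPM in F. occidentalis females, so that 2 F. intonsa libraries were above and 1 was below every F. occidentalis library. It did not pass the threshold (-0.71 ± 1.66 (SE), adjusted p = 0.707, limma), but without F. intonsa library 3 the log2 fold change was 1.18 and passed (adjusted p = 0.014, limma). Glutathione peroxidase DN42547_c1_g1 had 3.61, 58.5 and 0.09 TPM in F. intonsa and 847, 943 and 937 TPM in F. occidentalis females. Peroxiredoxin 6 (DN46741_c0_g4) had 0.27, 30.9 and 0.06 TPM in F. intonsa and 352, 357 and 361 TPM in F. occidentalis females. The glutathione peroxidase DN44254_c0_g1 had 11.9, 148 and 0.25 TPM in F. intonsa and 399, 476 and 482 TPM in F. occidentalis females. These 3 rows were lower in F. intonsa, with log2 fold changes of -7.09 ± 1.504, -6.68 ± 1.41 and -5.08 ± 1.76 (SE) and adjusted p of 0.00622, 0.00608 and 0.0379 by limma. Their assembly components held further rows. The second peroxiredoxin 6 row, DN46741_c0_g2, had 17, 279 and 0 TPM in F. intonsa and 30.1, 34.5 and 31.1 TPM in F. occidentalis females, so that its groups overlapped (-0.94 ± 2.05 (SE), adjusted p = 0.687, limma). The sum of both was 17.3, 310.0 and 0.06 TPM in F. intonsa and 382, 392 and 393 TPM in F. occidentalis females, and library 2 stood at 79.7% of the F. occidentalis female mean. The value of the single row DN46741_c0_g4 is thus no measure of peroxiredoxin 6 as a whole. The component of glutathione peroxidase DN42547_c1_g1 summed to 43.3, 389 and 0.32 TPM in F. intonsa and 847, 947 and 948 TPM in F. occidentalis females, and that of DN44254_c0_g1 to 12.1, 149 and 0.25 TPM in F. intonsa and 399, 476 and 482 TPM in F. occidentalis females.

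For many enzymes each species had a row of its own in the same component. Of 83 groups of rows that share a component and a family, 19 held at least 1 row above 0 in each species alone, 61 rows in all, and 16 of the 19 matched animals only. Peroxiredoxin 5 is an example: DN44502_c0_g5 had 835, 923 and 78.1 TPM in F. intonsa and was listed at 0 in every F. occidentalis library, where DN44502_c0_g6 held the TPM. Copper-zinc dismutase DN39371_c0_g14 had 33.9, 296 and 3.11 TPM, thioredoxin-2 row DN38999_c0_g5 124, 330.3 and 6.10 TPM and glutathione peroxidase DN42547_c1_g10 39.7, 331 and 0.23 TPM in F. intonsa, each listed at 0 in F. occidentalis. In all 4 rows library 2 was the highest and library 3 the lowest.

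Summed over the 19 groups, F. intonsa libraries 1, 2 and 3 had 1323, 3674.5 and 99.2 TPM, against 4798, 5259 and 5299.6 TPM in F. occidentalis females. Against the F. occidentalis female mean, the median group stood at 4.74% in F. intonsa library 1, 76.4% in library 2 and 0.0196% in library 3. Library 2 was above 0 in all 19, above every F. occidentalis female library in 6 and below every one in 11. Library 1 was above 0 in 12 and below every F. occidentalis female library in 17, and library 3 was above 0 in 10 and below in all 19. The peroxiredoxin 5 component was 1 of 2 in which library 1 was above every F. occidentalis female library (the other being glutaredoxin-related protein 5, DN45573_c0), with 900.2, 1164 and 83.8 TPM in F. intonsa and 518, 610.2 and 559 TPM in F. occidentalis females. Manganese dismutase (DN38265_c0) had 38.1, 121 and 1.16 TPM in F. intonsa and 204, 168 and 184 TPM in F. occidentalis females, and catalase (DN38145_c2) had 13.5, 42.8 and 0.03 TPM in F. intonsa and 148, 155 and 156 TPM in F. occidentalis females. Both components were below F. occidentalis in all 3 libraries. A manganese dismutase row in another component, DN47862_c0_g1, had 49.5, 185 and 14.9 TPM in F. intonsa and was listed at 0 in F. occidentalis. With it, the animal-like manganese dismutases summed to 87.6, 306 and 16.0 TPM in F. intonsa and 204, 168 and 184 TPM in F. occidentalis females, so that F. intonsa library 2 was above every F. occidentalis library.

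**Figure D5:**
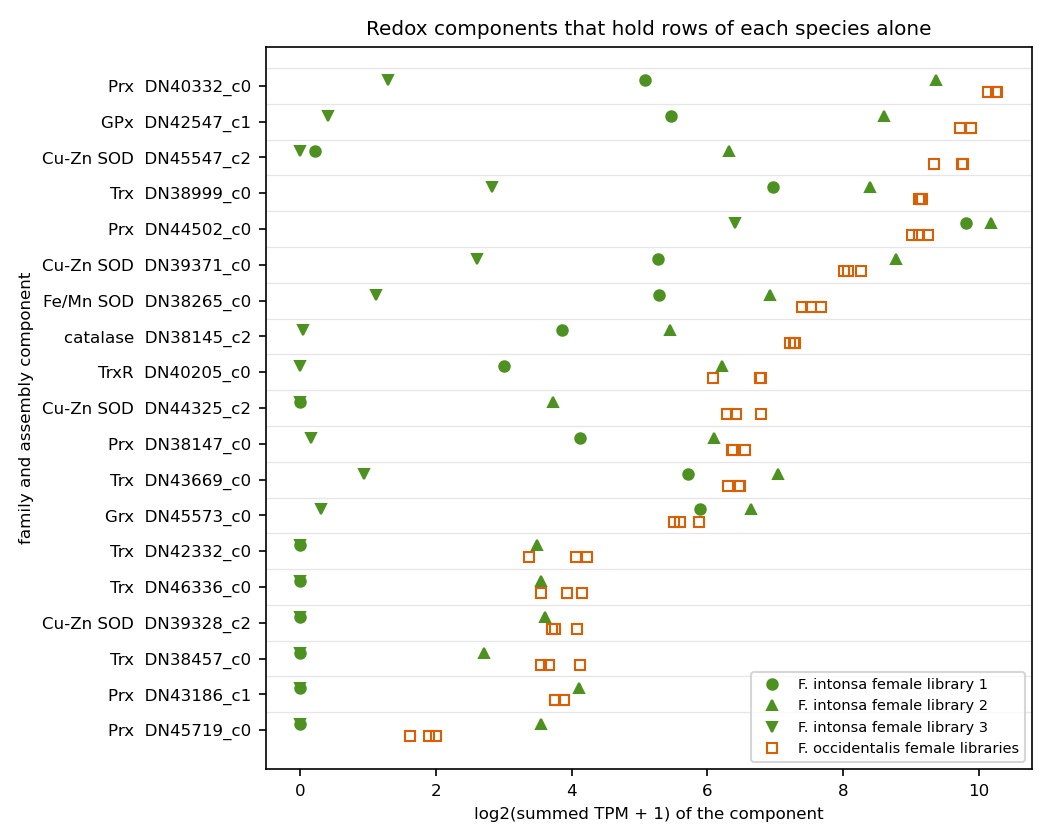
Summed TPM of the 19 groups of redox rows with a row of each species alone, as log2(TPM + 1), for the 3 F. intonsa female libraries (filled symbols, upper line of each pair) and the 3 F. occidentalis female libraries (open squares). F. intonsa library 2 is above 0 in all 19, and library 3 lies below every F. occidentalis library in all 19.

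Some redox rows of F. intonsa matched plants, bacteria or the pig. Among the plant-, alga- or microbe-matched genes, a glutaredoxin (DN41211_c0_g3, Arabidopsis match but a sawfly, Neodiprion lecontei, annotation) had 64.9, 180.3 and 16.6 TPM in F. intonsa and was listed at 0 in F. occidentalis. A second row of its component, DN41211_c0_g1, with the same Swiss-Prot match, had 107, 81.9 and 21.2 TPM in F. intonsa and was likewise at 0 in F. occidentalis. A Bordetella-matched manganese dismutase, DN32392_c0_g1, had 2.93, 3.30 and 10.8 TPM in F. intonsa and 0.79, 0 and 0 TPM in F. occidentalis females. It passed the threshold (limma), but it reached the filter only through F. intonsa, so its direction was fixed before the fit. A cyanobacterium-matched glutathione peroxidase, DN36200_c0_g1, had 2.11, 0.36 and 9.29 TPM in F. intonsa and 0, 0.51 and 0 TPM in F. occidentalis females. Both bacterial rows were highest in library 3. In addition 5 redox genes were annotated from the pig (Sus scrofa), a list made after values were seen: all 5 were above 0 in all 3 F. intonsa libraries, at 1.79 to 10.6 TPM, and 4 were at 0 in every F. occidentalis library. All 61 rows annotated from the pig summed to 2487, 2610.3 and 3145 TPM in F. intonsa and 11.3, 19.2 and 16.6 TPM in F. occidentalis females. Of these rows 2 were at 0 in all F. intonsa libraries and 52 in all F. occidentalis female libraries, and their part in the redox values was not tested.

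Some redox genes were found in a single library. Above 0 in exactly 1 library were 21 redox genes: 9 animal-like, 7 plant-, alga- or microbe-matched and 5 without a match. A Candida-matched catalase (DN17325_c0_g2) had 6.62 TPM in male library 3 alone, and a Cordyceps-matched copper-zinc dismutase (DN18920_c0_g1) had 8.38 TPM in that library alone. A Schizosaccharomyces-matched peroxiredoxin (DN31475_c0_g1) had 13.9 TPM in F. intonsa library 2 alone. The most abundant microbe-matched thioredoxin-fold row, DN19425_c0_g1 (DsbA of Burkholderia cepacia), had 26.4, 99.0 and 93.0 TPM in males, 0, 0 and 1.16 TPM in F. intonsa females and 52.2, 19.3 and 16.7 TPM in F. occidentalis females. It was above 0 in all 6 F. occidentalis libraries and overlapped between the sexes (1.25 ± 0.58 (SE), adjusted p = 0.341, limma).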

How the data were processed

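Antennal RNA of 9 libraries in 3 groups of 3 was analysed. Per the labels' protocols, little total RNA was turned into cDNA by the SMARTer method and amplified by long-distance PCR. The tools were Salmon, cutadapt and FastQC, per the submitters' processing notes, which give no versions. The gene identifiers begin with TRINITY, the name of an assembler, and the rows carry Pfam and Swiss-Prot matches. Beyond this, the assembly and annotation are not described in the sources used here. A deposited table holds TPM for 48889 assembled genes, a unit inferred from the library totals and from Salmon. The smallest row maximum was 5.01 TPM, so rows that stayed lower in every library are absent. Each value column names its sample (0 do not). Depth is unknown, so no counting interval is given, and the number of libraries limits the precision.

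Members were found by the rule in the opening, and were split by Swiss-Prot organism; the members and gene lists were chosen with earlier results of these data known. Both comparisons used limma 3.58.1 in R 4.3.3, with its trend option, on log2(TPM + 1), on rows of at least 1 TPM in at least 3 of the 6 libraries, two-sided, with Benjamini-Hochberg adjustment over all rows tested, a threshold of 0.05 and no covariate. The fit was tested on simulated data. Named were the genes past the threshold between the sexes, the 3 highest of each family and class in F. occidentalis and the 1 highest in F. intonsa, those above 0 in all 6 female libraries, and the highest of each pathway list; of these, the text gives the ones its results turn on. Any other named gene was chosen after its values were seen. No fold is given against a group listed at 0, and no sequence was available to print; 0 identifiers matched the RefSeq gene table. Python 3.11.15 (matplotlib 3.10.9, numpy 2.4.6, pandas 2.3.3) made tables and plots. The alternatives were another pseudocount, no filter, quantile normalization, no trend, all libraries in 1 fit, a replicate block, components summed, exact domain names, and each library left out.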

Additional observations from a re-analysis of the deposited data

How the results depend on the processing

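The number of redox genes past the threshold between the sexes was 7. It was 3 with a pseudocount of 0.1, 2 with quantile normalization, 2 with all 9 libraries in 1 fit, 0 with no filter on low values and 0 without limma's trend; the cause was not tested. It was 6 with rows of a component and family summed, and 0 to 4 with 1 library left out. With 1 library left out, 18 to 285 of all rows passed between the sexes, against 415 in the main fit. Exact domain names left 120 members and the same count of 7. Between the species it was 67. It was 55 to 68 under the other settings, with 11047 to 18456 of all rows passing. With 1 library left out it was 22 to 50 of 44 to 61 genes tested. Rows at 0 throughout the group kept whole could not reach the filter there, so part of that drop was fixed before the fit. Quantile normalization moved the median of all rows from 0.19 to -0.02 between the sexes and from -2.35 to -0.20 between the species. The 7 genes stayed higher in males by value in the 12 settings that kept rows as deposited. In the species comparison the log2 fold change of DN45573_c0_g2 ran from -1.74 to 1.18 with 1 library left out (1.18 without F. intonsa library 3, against -0.71), and that of DN32807_c0_g1 turned to 0.90 with quantile normalization. Between the sexes 330 values of named genes under these settings kept their side of the threshold and 66 no longer passed it. All 66 belong to the 7 genes, each of which passed in only 1 to 5 of 12 settings. Of the other values between the species 185 kept their side, 26 no longer passed the threshold and 3 newly did. Same-numbered libraries did not deviate together over all rows (correlations of -0.055 to 0.050). Such correlations cannot show whether these libraries were collected or prepared together, and the labels do not say. With the replicate block 6 genes passed between the sexes and 66 between the species. Depth is unknown, so genes of few TPM cannot be told from 0.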
